A study of Mus musculus with 2 samples.

Results

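The genes described here are the metallothioneins and the zinc transporters and zinc sensor that work beside them: Mt1, Mt2, Mt3, Mtf1, Slc30a1, Slc30a10, Slc39a1, Slc39a4, Slc39a5 and Slc39a8. They are 10 of 43346 mouse genes in the deposited tables, picked out by gene identifier. The set was chosen by the values of these same libraries, because Mt1 and Mt2 differed strongly between them. Every difference between the libraries given here for a member is therefore a description, with no test.

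Gene expression was measured by RNA-seq in whole liver of adult C57BL/6J mice aged 8 weeks, an inbred laboratory strain. Males and females from the same litters were pooled, and no genetic change or treatment is named for any animal. The data are 2 libraries, numbered biological replicates 1 and 2, with separate biosamples but a shared donor identifier and health recorded as unknown. They form a single group, so the design holds no contrast between conditions. How many animals each pool held, and how many of each sex, is not given in the labels. Any difference in sex make-up between the pools would coincide with the replicate, so it cannot be told apart. The spread between these libraries may be biological or technical, and these cannot be told apart.

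Metallothioneins are small proteins in which cysteine side chains hold zinc, copper and cadmium. Free zinc in the cell binds the transcription factor MTF-1, the product of Mtf1, which then binds short metal response elements in the promoters of Mt1, Mt2 and the zinc exporter gene Slc30a1. Transporters of the SLC39 family bring zinc into the cytosol, those of the SLC30 family take it out, and liver is a main site of metallothionein production, which metals, glucocorticoids, inflammation and fasting are known to raise.

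Windows upstream of the RefSeq starts of 3 metal-responsive members are shown, with the letters that MTF-1 is known to bind marked. Each window holds the 250 bases before the gene's start in RefSeq, on mouse assembly GRCm38.p6, with all 3 genes on the plus strand. Mt1 lies at chr8:94178839-94179088, Mt2 at chr8:94172368-94172617 and Slc30a1 at chr1:191906531-191906780. In GENCODE M21 the gene Mt2 starts slightly downstream of this RefSeq start, and Mt1 and Slc30a1 slightly upstream of theirs. Further transcripts there start downstream, Mt1-203 at 94179211, Mt1-202 at 94179241 and Mt2-202 at 94172860. The bases directly before those starts lie outside the printed windows, which may therefore miss promoter sequence of Mt1 and Mt2. Windows before those starts were not searched, so the match counts for Mt1 and Mt2 hold for the RefSeq start only. Capitals mark the core letters of the metal response element, TGCACNC or TGCGCNC, read on either strand.
Mt1 promoter: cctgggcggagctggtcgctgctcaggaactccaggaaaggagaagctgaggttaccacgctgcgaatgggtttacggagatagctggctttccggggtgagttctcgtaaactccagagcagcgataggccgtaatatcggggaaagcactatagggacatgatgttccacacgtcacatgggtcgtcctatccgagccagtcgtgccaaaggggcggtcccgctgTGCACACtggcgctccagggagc
Mt2 promoter: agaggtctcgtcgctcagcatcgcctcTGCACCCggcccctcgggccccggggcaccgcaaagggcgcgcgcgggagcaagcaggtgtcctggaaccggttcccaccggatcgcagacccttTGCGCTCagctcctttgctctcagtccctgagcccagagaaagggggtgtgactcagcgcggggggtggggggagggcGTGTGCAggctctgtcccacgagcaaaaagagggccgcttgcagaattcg
Slc30a1 promoter: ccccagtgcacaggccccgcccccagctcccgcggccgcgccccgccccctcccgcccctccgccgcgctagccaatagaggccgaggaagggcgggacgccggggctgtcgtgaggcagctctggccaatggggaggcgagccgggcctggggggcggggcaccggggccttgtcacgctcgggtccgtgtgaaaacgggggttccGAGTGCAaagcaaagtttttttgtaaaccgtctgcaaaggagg

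The Mt2 window held 3 matches to the metal response element, starting at positions -223, -128 and -50 relative to the start, the last of them on the minus strand. The Mt1 window held 1 match, from position -23, and the Slc30a1 window held 1 on the minus strand, from position -43. Of 32851 RefSeq promoter windows of the same length, 21.4% held at least 1 match and 1.26% held at least 3. The Slc30a10 window also held 3 matches, of which 2 overlapped on opposite strands. RefSeq gave windows for 9 of the 10 members. Slc39a5 and Slc39a8 each had more than 1 start, with 1 match in 1 window of each gene, and no match lay in the windows of Mt3, Mtf1 and Slc39a1. Other letters were searched on both strands as well. TGACNNNGC, the core of the antioxidant response element, was found in windows of Mt2, Slc30a1, Slc39a1, Slc39a5 and Slc39a8 and in 10.2% of all windows. The E-box CACGTG was found only in a window of Slc39a8 (6.02% of all windows), and the glucocorticoid half-site AGAACA only in that of Mtf1 (16.1%). When the window was extended to 50 bases after the start, a choice made after seeing the data, Mt1 had 3 matches and Mt2 had 4, against 25.7% of all such windows with at least 1. A match describes the letters only and is no evidence of binding in this tissue.

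The coding sequences of the metallothionein members are shown because the cysteine codons, in capitals (TGC or TGT), carry the metal-binding residues, and because similar genes can share reads. They come from the GENCODE M21 transcripts Mt1-201 (chr8:94179311-94180190), Mt2-201 (chr8:94172848-94173424) and Mt3-201 (chr8:94152800-94154007) on GRCm38, each joined from 3 exons on the plus strand and written without the stop codon.
Mt1 coding sequence: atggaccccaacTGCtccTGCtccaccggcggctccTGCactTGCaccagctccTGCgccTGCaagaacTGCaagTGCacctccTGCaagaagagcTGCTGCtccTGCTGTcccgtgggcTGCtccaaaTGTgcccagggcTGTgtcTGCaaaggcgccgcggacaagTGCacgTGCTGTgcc
Mt2 coding sequence: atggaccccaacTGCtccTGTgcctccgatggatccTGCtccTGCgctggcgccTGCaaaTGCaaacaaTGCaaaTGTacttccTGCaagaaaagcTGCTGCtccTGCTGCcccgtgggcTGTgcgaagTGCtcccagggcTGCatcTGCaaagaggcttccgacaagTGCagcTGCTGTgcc
Mt3 coding sequence: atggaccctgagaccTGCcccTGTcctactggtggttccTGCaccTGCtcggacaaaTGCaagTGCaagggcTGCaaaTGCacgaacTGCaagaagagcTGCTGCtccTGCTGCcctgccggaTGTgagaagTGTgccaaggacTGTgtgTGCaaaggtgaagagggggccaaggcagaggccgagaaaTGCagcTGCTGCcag

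Each of these sequences has 20 cysteine codons, out of 61 in Mt1 and Mt2 and 68 in Mt3. Mt1 and Mt2 were identical at 145 of 183 coding bases (79.2%). The longest run of bases shared by their transcripts was 20 bases, and it was 27 bases for Mt1 and Mt3, against a read length of 76 bases. The deposited posterior SD of the read count, which rises where reads are shared among copies, was 0 for all 3.

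Levels are given as the deposited TPM, transcript estimates corrected for gene length and scaled to the same sum in each library, so that genes can be compared within a library. Each library's reads also give an exact 95% Poisson interval, which covers counting error only, because without molecular identifiers several reads can stem from 1 molecule. The libraries held 60770411 and 61688916 estimated reads on genes and spike-ins in replicates 1 and 2. Hepatocyte markers were high in both, with 5 of 5 found and a summed level of 53930 and 55369 TPM. Alb led this sum, at 32113.3 TPM in replicate 1 and 34762.5 in replicate 2. On the ratio of deposited TPM, 3 of the 5 hepatocyte markers were lower in replicate 2 and 2 were higher. With the TMM scaling described below, 4 were lower and 1 was higher. Kupffer cell markers summed to 207 and 340 TPM, with 7 of 7 higher in replicate 2. Sinusoidal endothelial markers summed to 89.5 and 126 TPM, with 5 of 5 higher in replicate 2, and red blood cell markers to 1290.2 and 2110 TPM, with 4 of 5 higher there. Stellate cell markers summed to 111 and 125 TPM, but Lrat was higher in replicate 1, at 6.68 against 2.97 TPM. Cholangiocyte markers summed to 21.2 and 18.7 TPM. The part of these cell types in the differences of the members was not tested. Differences between libraries are log2 ratios of replicate 2 over replicate 1, from reads scaled by TMM, a method that assumes most genes are equal. A gene counts as apart at 2-fold or more, among genes whose reads add up to 20 or more over the libraries. Of 14533 such genes, 400 (2.75%) were 2-fold or more higher in replicate 1 and 855 (5.88%) were so in replicate 2. Thus 68.1% of the genes apart were higher in replicate 2, against 78.3% with scaling to total gene reads and 80% with scaling to spike-ins. The median log2 ratio of all these genes was 0.0030 with TMM, 0.13 with total reads and 0.15 with spike-ins.

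Of the 9 members with enough reads, 3 were 2-fold or more higher in replicate 1, where 2.75% of all genes were, and none in replicate 2, where 5.88% were. Those 3 were Mt1, Mt2 and Slc39a5. Nothing is read from this count, since these libraries chose the members. The median log2 ratio of the 9 was -0.40, beside 0.0030 over all genes. Bulk tissue cannot separate fewer cells of a type from less RNA per cell, and this holds for each value that follows.

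**Figure D1:**
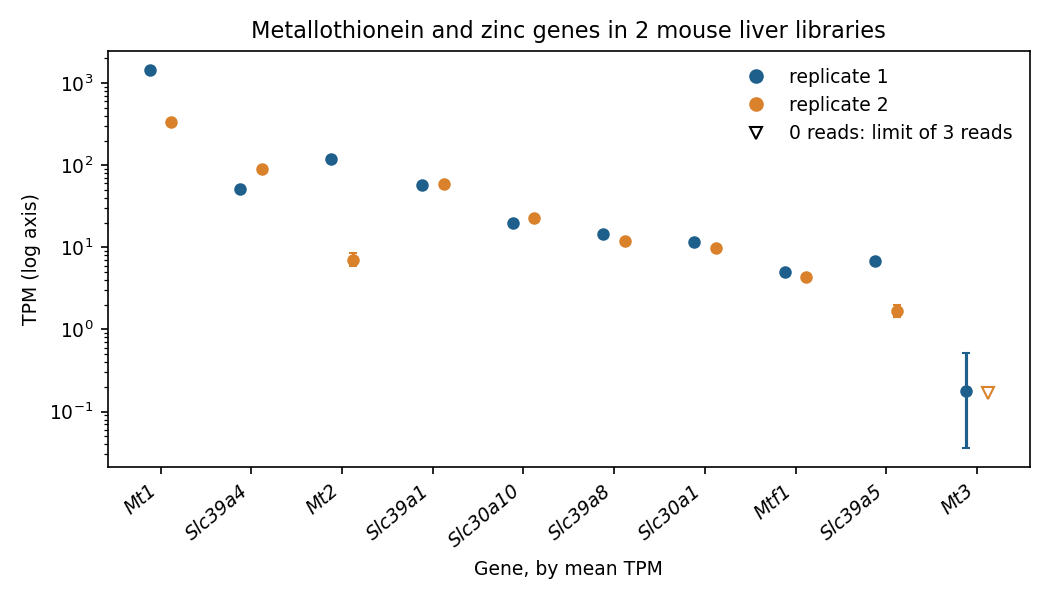
Level of each member in TPM on a log axis in each library, with points for replicates 1 and 2 and bars for the exact 95% Poisson interval of the reads. The points lie far apart for Mt1, Mt2 and Slc39a5, whereas those of Slc39a1 nearly coincide at 56.7 and 58.5 TPM.

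Mt1 (ENSMUSG00000031765, chr8:94179082-94180327, plus strand), which encodes a widespread metallothionein isoform, had 1439 TPM in replicate 1 (1420 to 1460) and 341 in replicate 2 (333 to 350). It was the member with the highest level in each library, at rank 95 of all genes in replicate 1 and rank 388 in replicate 2. The level was high in both libraries but the counting intervals were far apart. The mean was 889.8 ± 776 TPM (SD, n = 2). On reads, 24666 against 6063, the log2 ratio was -2.17 (95% counting interval -2.21 to -2.13), or 4.50-fold higher in replicate 1. Of all genes compared, 75 (0.516%) were at least as far apart in that direction.

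Mt2 (ENSMUSG00000031762, chr8:94172664-94173568, plus strand), which lies next to Mt1 and encodes the other widespread isoform, had 119 TPM in replicate 1 (114 to 124) and 7.11 in replicate 2 (5.95 to 8.43). It ranked 977 and 6543 in the libraries, a far lower place in replicate 2. The mean was 63.1 ± 79.2 TPM (SD, n = 2), with an SD larger than the mean. On 2135 against 132 reads the log2 ratio was -4.16 (-4.43 to -3.91), or 17.8-fold higher in replicate 1. Only 25 genes (0.172%) were at least as far apart in that direction.

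Mt1 and Mt2 were both higher in replicate 1, but by different amounts. Mt1 exceeded Mt2 by 12.1-fold on TPM in replicate 1 (11.6 to 12.6) and by 48.0-fold in replicate 2 (40.4 to 57.4). These counting intervals do not overlap. Mt1 made up 92.3% of metallothionein TPM in replicate 1 and 98% in replicate 2. Together the metallothionein genes held 0.156% of all TPM in replicate 1 and 0.0348% in replicate 2, a mean of 0.0953% ± 0.0855 (SD, n = 2). The annotated gene Gm45774 lies across 212 bases of Mt2 on the opposite strand. It was not found among the genes with deposited values, so no level is known for it. The libraries are labelled strand-specific, but the sources used here do not give whether counting used the strand.

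Mt3 (ENSMUSG00000031760, chr8:94152607-94154146, plus strand), the metallothionein known from brain, had 3 reads in replicate 1, or 0.18 TPM (0.0363 to 0.514), and 0 reads in replicate 2. A count of 0 is taken to allow up to 3 reads, which is 0.170 TPM for Mt3 in replicate 2. Both counts are at or under that limit of 3 reads, so no ratio is given. Mt4, known from stratified epithelia and no member here, had 0 reads in both, and 3 reads would be 0.304 and 0.287 TPM. The exact 95% Poisson upper limits of these counts of 0 are slightly higher, at 0.209 TPM for Mt3 in replicate 2 and at 0.373 and 0.353 TPM for Mt4. Mt1 and Mt2 thus made up nearly all the metallothionein signal in these libraries.

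Mtf1 (ENSMUSG00000028890, chr4:124802104-124849800, plus strand), the zinc sensor, had 5.06 TPM in replicate 1 and 4.38 in replicate 2, a mean of 4.72 ± 0.481 (SD, n = 2). It was low and slightly higher in replicate 1, with a log2 ratio of -0.44 (-0.55 to -0.33), which is under 2-fold. The gene 1110065P20Rik, with 1133 and 1394 reads, overlaps 721 bases of Mtf1 on the opposite strand.

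**Figure D2:**
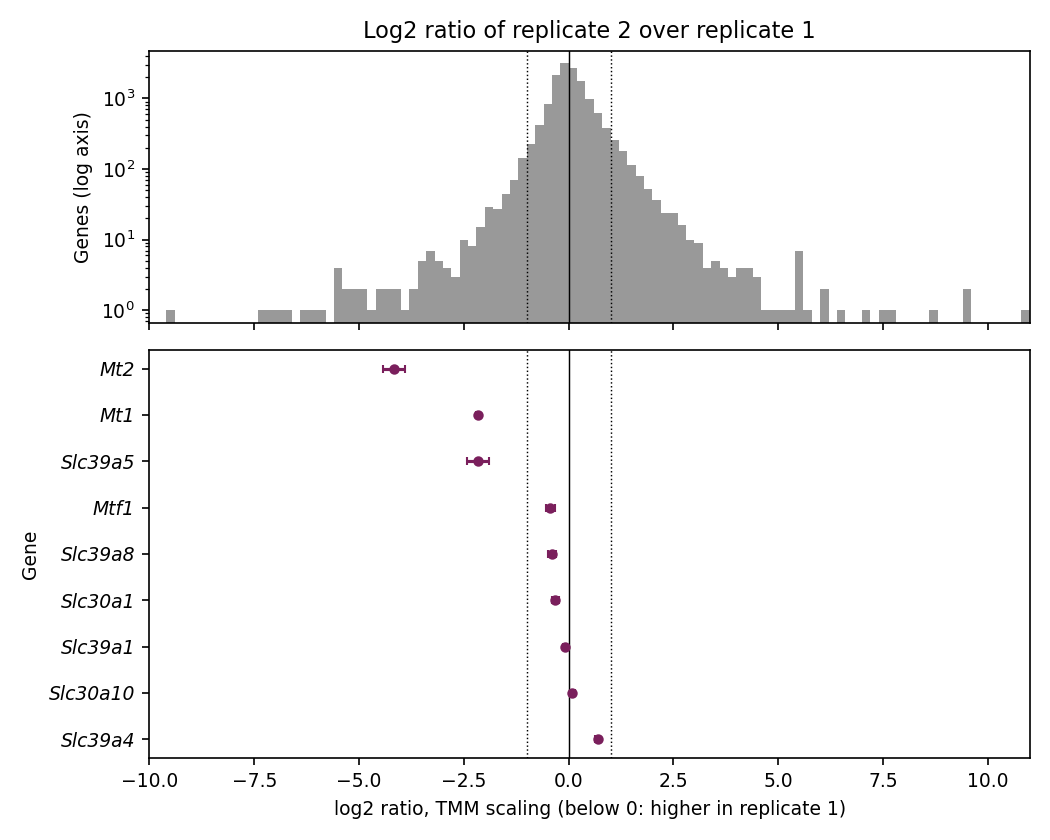
Log2 ratio of replicate 2 over replicate 1 for the 9 members with enough reads, with 95% counting intervals, beside the distribution for all 14533 genes compared. Mt2 at -4.16, Mt1 at -2.17 and Slc39a5 at -2.16 lie beyond the 2-fold line, and the other 6 members lie within it.

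Among the exporters, Slc30a1 (ENSMUSG00000037434, chr1:191906767-191913247, plus strand) takes zinc out through the plasma membrane and is a known target of MTF-1. It had 11.6 TPM in replicate 1 and 9.89 in replicate 2, a mean of 10.7 ± 1.19 (SD, n = 2). The level was thus higher in the same library as Mt1 and Mt2, but the log2 ratio was only -0.32 (-0.40 to -0.24). The 3 genes whose promoter windows are printed above therefore spanned log2 ratios from -4.16 to -0.32.

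Slc30a10 (ENSMUSG00000026614, chr1:185454848-185468762, plus strand), named for its family but known as a manganese exporter of liver and gut, had 19.7 TPM in replicate 1 and 22.9 in replicate 2. Its mean was 21.3 ± 2.29 TPM (SD, n = 2), the higher of the exporters in the set. It went the other way from Slc30a1, with a log2 ratio of 0.09 (0.04 to 0.14). Both exporters are overlapped on the opposite strand, Slc30a1 by 1700034H15Rik with 6 and 30 reads and Slc30a10 by Gm2061 with 160 and 180 reads.

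Among the importers, Slc39a4 (ENSMUSG00000063354, chr15:76612383-76617384, minus strand) encodes ZIP4, best known for zinc uptake in the intestine. It had 51.8 TPM in replicate 1 (50.4 to 53.3) and 91.3 in replicate 2 (89.4 to 93.1). The gene was well expressed in both libraries and higher in replicate 2, opposite to the metallothioneins. The mean was 71.55 ± 27.9 TPM (SD, n = 2) and the log2 ratio 0.69 (0.64 to 0.74), or 1.61-fold. Among all genes 1545 (10.6%) were at least as far apart in that direction.

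Slc39a1 (ENSMUSG00000052310, chr3:90248172-90253612, plus strand), encoding the plasma membrane importer ZIP1, had 56.7 TPM in replicate 1 and 58.5 in replicate 2. Its mean of 57.6 ± 1.29 TPM (SD, n = 2) had the smallest spread for its level in the set. The log2 ratio was -0.08 (-0.13 to -0.03) with TMM and up to 0.07 with other scalings, so its direction depends on the scaling.

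Slc39a8 (ENSMUSG00000053897, chr3:135825279-135888572, plus strand), encoding ZIP8, an importer of zinc, manganese and cadmium, had 14.4 TPM in replicate 1 and 12.0 in replicate 2. The mean was 13.2 ± 1.70 TPM (SD, n = 2), and the log2 ratio was -0.40 (-0.49 to -0.31), under 2-fold.

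Slc39a5 (ENSMUSG00000039878, chr10:128395931-128401229, minus strand), encoding ZIP5, which is known from pancreas, intestine and liver, had 6.87 TPM in replicate 1 (6.32 to 7.44) and 1.68 in replicate 2 (1.41 to 1.97). It was the importer with the lowest level in the set and the only transporter of the set past 2-fold. The mean was 4.275 ± 3.67 TPM (SD, n = 2). On 586 against 145 reads the log2 ratio was -2.16 (-2.43 to -1.89), or 4.46-fold higher in replicate 1. In that direction 76 genes (0.523%) were at least as far apart.

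Markers of the organs that also express Slc39a5 were low. The 5 pancreas acinar markers (5 of 5 found) summed to 9.53 and 6.43 TPM. Of the 4 with enough reads, 3 were 2-fold or more higher in replicate 1, where 2.75% of all genes were. On the ratio of deposited TPM, 2 of 4 were so. The 3 with TMM were Ctrb1 on 150 and 56 reads, Prss2 on 43 and 13 and Cpa1 on 33 and 15. The other, Cela2a, was higher in replicate 2, at 3.02 and 4.15 TPM. The intestine markers (4 of 5 found) summed to 13.5 and 9.21 TPM, led by Fabp2 at 11.4 and 5.82 TPM. Fabp2 alone was lower in replicate 2, while Muc2 at 1.97 and 3.16 TPM and Vil1 at 0.19 and 0.23 TPM were higher there, and the median log2 ratio of these 3 was 0.32. Lct was listed at 0 TPM in both libraries. The part of pancreas or gut RNA in the Slc39a5 difference was not tested.

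By mean level the order was Mt1, Slc39a4, Mt2, Slc39a1, Slc30a10, Slc39a8, Slc30a1, Mtf1, Slc39a5 and Mt3. The ranges over the libraries overlapped for the neighbours Slc39a4 and Mt2, Mt2 and Slc39a1, and Mtf1 and Slc39a5. For the other neighbours they did not, with 2 libraries behind each range. Mt2 was above Slc39a4 and Slc39a1 in replicate 1 and below both in replicate 2.

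The remaining transporters place the members within their families. Of 8 other exporters 6 had enough reads, with a median log2 ratio of -0.12, 5 lower and 1 higher in replicate 2, but 3 lower and 3 higher with scaling to total gene reads and 2 lower and 4 higher with spike-ins. The most abundant were Slc30a9 at 21.0 and 19.9 TPM and Slc30a5, which loads zinc into the secretory pathway, at 11.9 and 11.6 TPM. The 1 gene apart by 2-fold was Slc30a3 at 0.31 and 0.83 TPM, on 29 and 78 reads. Of 10 other importers 9 had enough reads, with a median of 0.19, 3 lower and 6 higher in replicate 2 (2 and 7 with either other scaling), and none was 2-fold apart. They were led by Slc39a7, which releases zinc from the endoplasmic reticulum, at 103 and 119.79 TPM, and Slc39a14, a liver importer of zinc, manganese and iron, at 78.6 and 97.8 TPM.

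**Figure D3:**
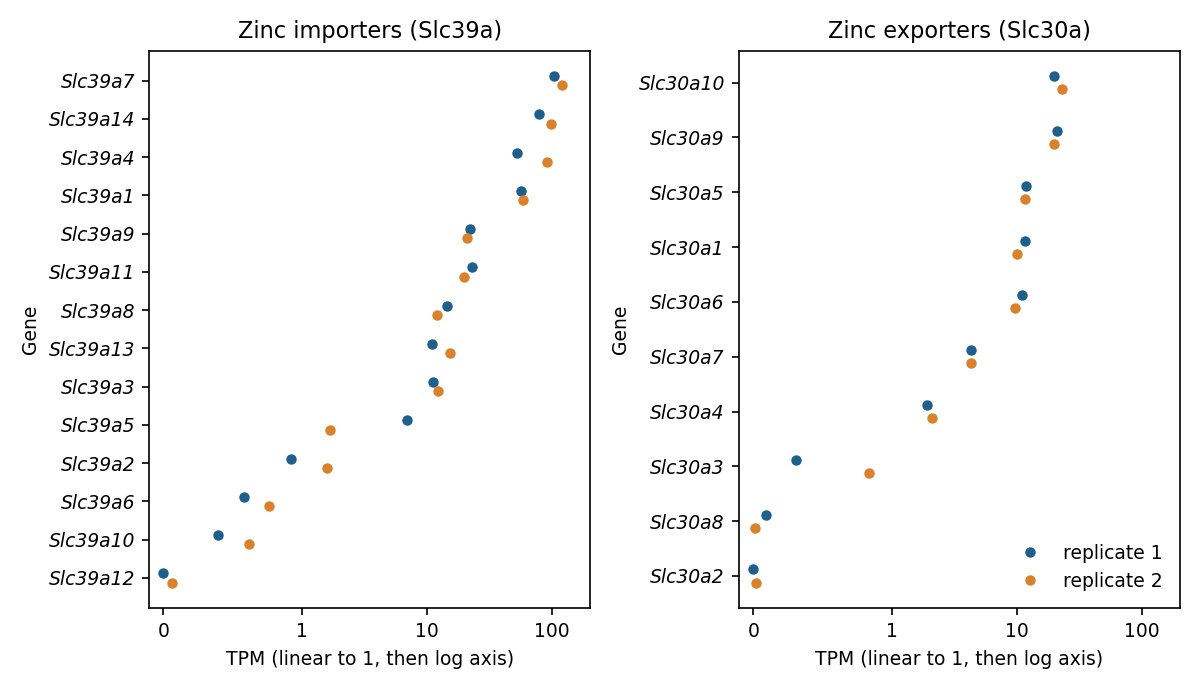
Level in TPM of all SLC30 and SLC39 genes, with a point for each library, on an axis that is linear at low levels and logarithmic above. Slc39a7, Slc39a14, Slc39a4 and Slc39a1 head the importers, and Slc30a10 and Slc30a9 head the exporters at about equal level.

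Summed over the families, importers held 379.99 TPM in replicate 1 and 451.94 in replicate 2. Exporters held 81.7 and 81.2 TPM. The sum of importers was 4.65 times that of exporters in replicate 1 and 5.57 times in replicate 2. These are sums of RNA by family. They include the manganese exporter Slc30a10 and Slc39a7 of the endoplasmic reticulum, so they do not measure zinc entering or leaving the cell. On deposited TPM the exporter sum was thus nearly level between the libraries, and the importer sum was higher in replicate 2. Slc39a4, at 51.8 and 91.3 TPM, made up much of the importer difference. With TMM, 6 of the 8 exporters with enough reads were lower in replicate 2 and 2 were higher. Of 13 such importers, 6 were lower and 7 higher.

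Transcript shares were read for the members with more than 1 annotated isoform. Mt1, Mt2, Slc30a10, Slc39a1 and Slc39a4 have 1 isoform each in the tables. Slc39a5-201 held 100% of its gene's TPM in both libraries. Slc30a1-201 held 93.64% in replicate 1 and 96.47% in replicate 2, and Mtf1-201 held 79.38% and 75.31%. A retained-intron transcript, Mtf1-204, was given 11.31% and 16.56% on only 17 and 21 reads.

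Slc39a8 had the most divided output, with its leading transcript Slc39a8-201 at 46.98% and 40.45%, a mean of 43.7% ± 4.62 (SD, n = 2). The retained-intron transcript Slc39a8-204 followed at 23.55% and 29.32%. Slc39a8-206 had 21.17% in replicate 1 and 9.62% in replicate 2, and Slc39a8-205 had 6.15% and 15.08%. The order of these last transcripts thus differed between the libraries, while Slc39a8-201 led in both. These shares are the deposited estimates, with no counting interval for how reads were divided among transcripts.

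**Figure D4:**
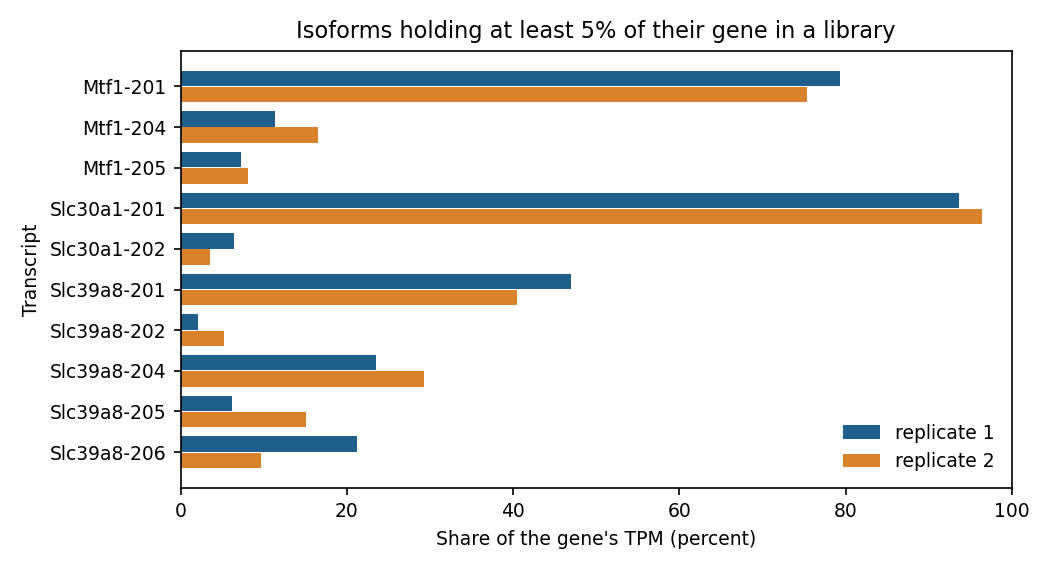
Share of gene TPM, in percent, held by transcripts of Mtf1, Slc30a1 and Slc39a8, with a bar for each library. Transcripts with only a small share in both libraries are left out. Slc39a8 is divided among several transcripts, whereas Slc30a1-201 holds over 90% of its gene.

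Lists of genes tied to metallothionein biology were read beside the members, each by its counts and its median, with 0.0030 as the median of all genes. Liver enzymes that use zinc had a median of -0.32, with 12 of 13 lower in replicate 2 (10 of 13 with total reads or spike-ins) and none 2-fold apart. Adh1, an alcohol dehydrogenase, had 2654 and 2737 TPM, and Car3, a carbonic anhydrase, had 1887 and 1553 TPM. Copper handling genes had a median of -0.10, with 5 lower and 4 higher of 9, but 3 lower and 6 higher with total reads or spike-ins. The copper chaperones Atox1 at 299.95 and 399 TPM and Ccs at 203 and 197 TPM were the most abundant. The lowest log2 ratio in either list was -0.875.

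Of the signals known to raise metallothionein, the glucocorticoid-responsive list had the lowest median at -0.74, with 8 of 9 genes lower in replicate 2. With total reads, spike-ins and deposited TPM, 6 of 9 were lower, at medians of -0.61, -0.58 and -0.54. None of the 9 reached 2-fold. Tat, a tyrosine-degrading enzyme, had 1183 TPM in replicate 1 and 747 in replicate 2, and Tsc22d3, a glucocorticoid-induced regulator, had 86.1 and 48.3 TPM. The fasting list held 3 of 9 genes 2-fold or more higher in replicate 1, where 2.75% of all genes were. With total reads or spike-ins 2 of 9 were, as Pdk4 then came under 2-fold. The 3 were Pck1, the gatekeeper of gluconeogenesis, at 491 and 207 TPM, Igfbp1 at 42.6 and 14.8 TPM and Pdk4 at 8.67 and 3.26 TPM. Of the 9 fasting genes, 7 were lower and 2 higher in replicate 2 with TMM, and 6 lower and 3 higher with spike-ins. The median of the fasting list was -0.29 with TMM, -0.17 with total reads and -0.14 with spike-ins.

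The acute phase list had 9 of 18 genes lower and 9 higher in replicate 2 with TMM, at a median of -0.01, but 4 lower and 14 higher with total reads, with spike-ins and on deposited TPM, at medians of 0.11, 0.14 and 0.10. Its summed level was 15633 TPM in replicate 1 and 19401 in replicate 2. Hamp, which encodes the iron hormone hepcidin, had 4495 and 6786 TPM, and the haem carrier Hpx had 3646 and 4491 TPM. The oxidative stress list had a median of -0.04 over 10 genes with TMM, 0.08 with total reads and 0.11 with spike-ins. It held Cat at 1271 and 1270.09 TPM and Gclm, of glutathione synthesis, at 257 and 201.5 TPM. The heat shock list had a median of 0.01 over 7 genes with TMM, 0.13 with total reads and 0.16 with spike-ins. It was led by Bag3 at 21.5 and 25.95 TPM and Dnajb1 at 19.25 and 21.1 TPM. Its member Hspb1 was 2-fold higher in replicate 2, at 9.41 and 21.0 TPM. No cause was tested for any of these lists, and 1 library on each side gives no test of them.

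**Figure D5:**
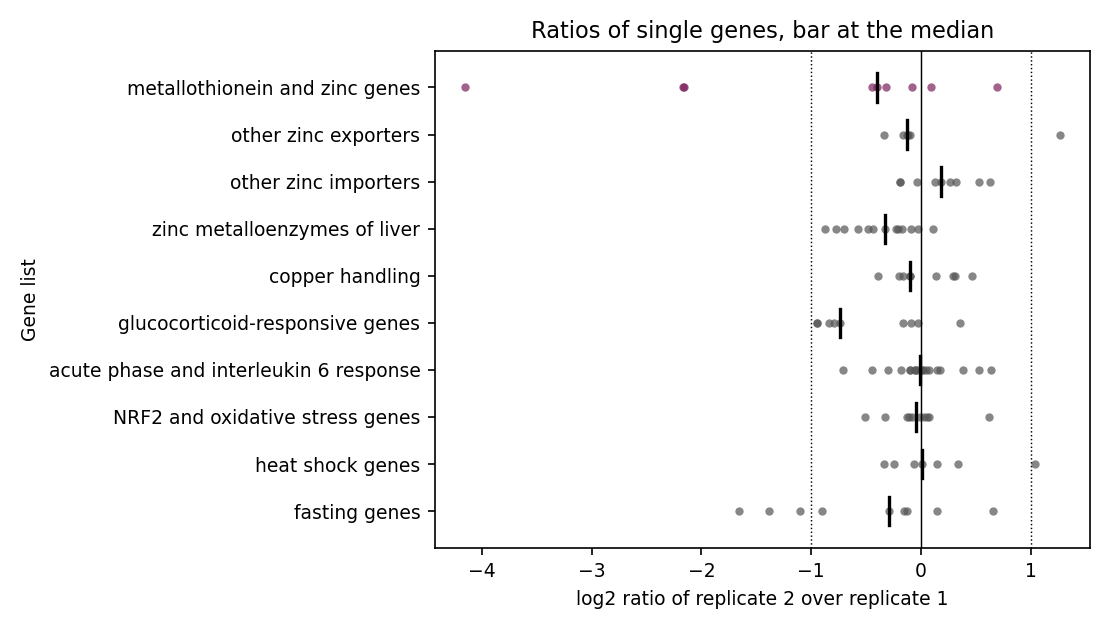
Log2 ratio of replicate 2 over replicate 1 for each gene of the lists, with the median of each list marked. The glucocorticoid-responsive list has its median at -0.74 with TMM, -0.61 with total reads and -0.58 with spike-ins. The acute phase and heat shock medians, at -0.01 and 0.01 with TMM, lie above 0.1 with total reads or spike-ins.

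The genes nearest to Mt1 and Mt2 in log2 ratio were sought among 5388 genes with a mean of at least 10 TPM whose posterior SD did not exceed 5% of the read count. Nearest to Mt1 were Sult2a2 at -2.24, Cyp3a41a at -2.38, Cyp2a22 at -1.90, A1bg at -2.53 and Hist1h4h at -1.70. Sult2a2, a steroid sulfotransferase, had 134 TPM in replicate 1 and 30.6 in replicate 2. Nearest to Mt2 were Cyp26a1 at -4.90, Abhd1 at -3.23, Cyp3a16 at -5.10, Cyp2c38 at -3.20 and Sult2a1 at -3.14. The measure is 1 ratio between 2 libraries, so likeness here says only that these genes were also higher in replicate 1. The part of the sex make-up of the pools in these ratios was not tested. The genes nearest to Mt2 were not close to it, with log2 distances of 0.75 to 1.02, against 0.07 to 0.47 for those nearest to Mt1.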

How the data were processed

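Poly-A RNA longer than 200 nucleotides was sequenced from 2 strand-specific liver libraries with spike-in RNAs, per the labels. The deposited gene and transcript tables are on mm10 with GENCODE M4, per the accompanying notes. The sources used here give no aligner or quantifier. The authors' estimated counts share multi-mapping reads among genes. The deposited TPM values divide by effective length and include the spike-ins (2.56% and 2.52% of TPM). The deposited percent is a transcript's share of its gene's TPM, and the deposited posterior SD is a score of count uncertainty. Junction and contig files of the whole series, on mm9, were not used here.

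Symbols and coordinates were taken from GENCODE M21, which is also on this assembly, GRCm38 (42462 of 43346 genes matched). Counts were rounded and scaled by TMM over genes (edgeR 4.0.16, R 4.3.3), and log2 ratios used a prior of 0.5 reads. Intervals are exact conditional binomial for ratios and Poisson for levels, at 95%. The scaling and ratio steps were run on simulated counts with counting error only and a small set of genes changed evenly up and down. Genes apart were uneven in direction in the data, so the simulation cannot tell which scaling is right here. Alternatives were total gene reads, DESeq2 1.42.0 size factors, spike-ins, a prior of 5 reads, deposited TPM with a pseudocount of 0.1, no filter on low counts and leaving out each library. The scalings were applied to the gene lists after seeing the data. The planned protein comparison was replaced by coding sequences. The members and lists were chosen with earlier results of these data known. The text names all members, the 5 genes nearest in ratio to Mt1 and to Mt2, and of each list the 2 most abundant genes and any 2-fold apart at mean TPM 1 or more. A gene that this rule selects is not reported here. Slc30a3, the transcripts and the cell type markers named fall outside that rule and were chosen after their values were seen.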

Additional observations from a re-analysis of the deposited data

How the results depend on the processing

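The 3 members 2-fold or more higher in replicate 1 kept that distance under every scaling and prior tried, with log2 ratios of -2.17 to -2.02 for Mt1, -4.16 to -4.00 for Mt2 and -2.16 to -1.97 for Slc39a5. Slc39a1 ranged from -0.08 to 0.07. Mtf1 ranged from -0.45 to -0.20, Slc30a1 from -0.32 to -0.17 and Slc39a8 from -0.40 to -0.25. Slc30a10 ranged from 0.08 to 0.24 and Slc39a4 from 0.69 to 0.84. The counting intervals of the ratios do not cover the choice of scaling. With no filter on low counts Mt3 is added on its 3 reads, for 4 members. The count of all genes 2-fold or more higher in replicate 1 moved from 400 to 1770 with no filter on low counts and to 263 with the ratio of deposited TPM, and the count higher in replicate 2 moved from 855 to 2967 with no filter. The cause was not tested beyond the fact that the filter removes genes with few reads. The metallothionein share of TPM ranged from 0.0348% without replicate 1 to 0.156% without replicate 2. Without spike-ins and mitochondrially encoded genes it was 0.105%. The mean TPM of Slc39a1 was 59.1 without spike-ins, against 57.6. No paired analysis was possible because the libraries form 1 group. Mt3 and Mt4 had too few reads for a ratio, and no interval covers variation between animals.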
